A study of Homo sapiens with 4 samples.

Results

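The HLA genes and the genes that load, assemble and control HLA molecules were examined in THP1, an established human monoblastic acute myeloid leukemia (AML) cell line. Members were all non-control probes of a 60-base oligonucleotide array whose printed gene name begins with HLA-, together with those for CD74, CIITA, B2M, TAP1, TAP2, TAPBP, CALR, CANX, PDIA3, ERAP1, ERAP2, NLRC5, IFI30, RFX5, RFXAP, RFXANK and CD1A to CD1E. This gave 46 genes, read by 68 probes, of 27193 gene names and 34127 probes in all. Of the 68 probes, 28 belonged to class I (heavy chains, assembly and peptide trimming) and 27 to class II (alpha and beta chains and peptide loading).

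The study asked which transcripts respond to miR-511 in monoblasts. THP1 cells received a single dose of 30 nM of either a miR-511-5p mimic or negative control #1 mimic, were kept in medium with little serum, and were harvested on day 2. Each treatment was carried out in 2 independent experiments, which gave 4 single-dye arrays, 1 per treatment and experiment. No untransfected cells were among these arrays, so both groups share the transfection. Since 4 arrays in pairs allow no two-sided p below 0.33 in an exact permutation test, calls come from limma's moderated test across all probes.

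Class I molecules pair a heavy chain, such as those of HLA-B, HLA-C or HLA-E, with beta-2-microglobulin and present peptides made in the cytosol, which the TAP transporter brings into the endoplasmic reticulum. Class II molecules are pairs of an alpha and a beta chain (HLA-DR, -DQ, -DP) that travel with the invariant chain CD74 to endosomes, where HLA-DM exchanges the bound peptide and HLA-DO restrains HLA-DM. The factor complex of RFX5, RFXAP and RFXANK binds the X box of class II promoters, NF-Y binds the Y box, and CIITA is recruited to them as the coactivator. NLRC5 is the related coactivator of class I genes. Monocytic cells carry class I constitutively, and interferon raises both classes.

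The mimic carries the mature miR-511-5p sequence, given here because its seed is the part that pairs with target transcripts. The RefSeq annotation places it on GRCh38.p14 at chr10:17845122-17845142, plus strand. Bases 2 to 8, the seed, are in capitals.
hsa-miR-511-5p: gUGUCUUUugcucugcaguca

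Between 22130 and 23647 probes, or 64.8 to 69.3% of all, were well above background on an array, and no spot was saturated. All 10 of the monocytic marker genes named on the array, among them CD33, CD68, SPI1, CSF1R, MPO and ELANE, were well above background on all 4 arrays. Of 5 B cell markers 4, among them CD79A, CD79B and PAX5, were also detected while MS4A1 (CD20) was not, and of 6 dendritic cell markers 4 were detected on no array.

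Detection separated the members by gene. Of the 68 probes, 54 were well above background on all 4 arrays, 11 on none and 3 on some. All 7 tested heavy chain genes, among them HLA-B, HLA-C, HLA-E, HLA-F, HLA-G and the pseudogene HLA-J, and all 9 genes of class I assembly and trimming had a probe above background on every array. Of 13 genes for class II alpha and beta chains, 10 did. HLA-DQA1, the alpha chain that pairs with HLA-DQB1, was above background with 1 probe on 1 array and with its other probe on none. The probes for HLA-DQA2, for the pseudogenes HLA-DRB6 and HLA-L, and for the 5 lipid-presenting CD1 chains (CD1A to CD1E) were above background on no array. A probe below background gives an upper bound only, and probe levels of different genes were not set against each other.

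Several probes cannot be assigned to a single gene. The array annotation lists RefSeq transcripts of a further gene for 6 member probes, among them both HLA-B probes (HLA-C), the brightest HLA-F probe (HLA-H), the HLA-DRB1 probe (HLA-DRB3) and the brighter PDIA3 probe (PDIA3P1). The HLA-DRB genes are near-identical, and their probes may report a sum.

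Introduction of the miR-511 mimic was not followed by a called change in any of these genes. A probe was called when its unadjusted p-value in limma's test was below 0.05. The study's methods also ask for a change over identical replicate probes, which was not applied here since most probes are printed once. Among all probes tested, 498 of 22638 were called for miR-511 mimic against control mimic, a background of 2.2%, and none passed after Benjamini-Hochberg adjustment, the smallest adjusted p being 0.79. Among the members, 0 of 56 tested probes were called in either direction. A fit with the experiment number as a replicate block called 894 probes over all and again 0 members.

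The values showed how small the differences were. HLA-B, a class I heavy chain, had normalized log2 intensities of 15.06 with miR-511 mimic and 15.09 with control mimic in experiment 1, and of 15.10 and 15.11 in experiment 2. The light chain B2M, read by 10 spots on each array, stood at 17.01 and 17.04 in experiment 1 and at 16.97 and 17.02 in experiment 2. The treatments overlapped for HLA-B, and for B2M both control mimic arrays lay above both miR-511 mimic arrays by less than 0.1.

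Within class I assembly, TAP1 (a chain of the peptide transporter) had a log2 fold change (log2FC) of 0.29 in experiment 1 and 0.06 in experiment 2. ERAP2, which trims peptides in the endoplasmic reticulum, had -0.42 and -0.07. Neither was called. The chaperones CALR and CANX had differences of opposite sign in the experiments, 0.06 and -0.04 for CALR and -0.16 and 0.24 for CANX.

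For class II, HLA-DRA (the alpha chain of HLA-DR) stood at 9.54 with miR-511 mimic and 9.77 with control mimic in experiment 1, and at 8.66 and 8.68 in experiment 2. HLA-DRB1 stood at 13.07 and 13.12, then at 12.49 and 12.60. The coactivator CIITA had a log2FC of -0.09 in experiment 1 and -0.27 in experiment 2, and its mean of -0.18 was not called (unadjusted p = 0.323). The brighter probe of RFX5 had -0.15 and -0.14, at an unadjusted p of 0.173, and its other probe -0.24 and -0.02. In each of these genes the miR-511 array was the lower of the pair in both experiments, but by less than the test could call.

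Taken over genes by their brightest tested probe, class I and class II had slightly different medians. The median log2FC of the 16 class I genes was 0.0057, with 9 genes higher and 7 lower, against 0.0098 over all tested probes, of which 53.7% were higher. The median of the 16 class II genes was -0.084, with 3 genes higher (HLA-DPA1, HLA-DQB1 and HLA-DOB) and 13 lower. Class II minus class I came to -0.090 in both experiments together, to -0.064 within experiment 1 and to -0.093 within experiment 2. These medians carry no test, since the genes share regulators, probes and arrays. Leaving out single arrays moved the difference between -0.31 and 0.20, because the remaining arrays then no longer hold both experiments equally. In the fit used for the calls, without a block, the 95% intervals of single class II genes were 0.72 wide to either side in the median. With the experiment as a block they were 0.26 wide to either side, and their limits ran from -0.51 to 0.52.

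**Figure D1:**
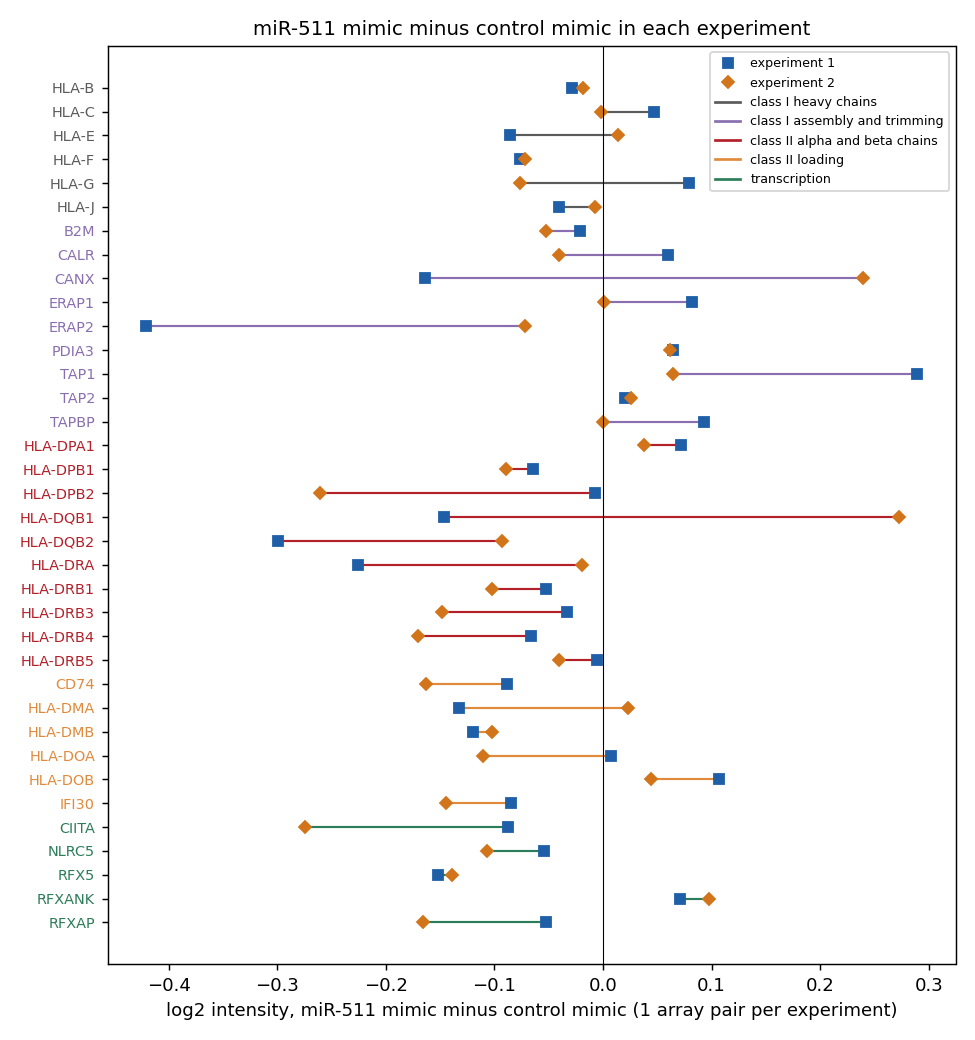
Difference in normalized log2 intensity between miR-511 mimic and control mimic for the brightest tested probe of 36 genes, with 1 square (experiment 1) and 1 diamond (experiment 2) per gene joined by a line coloured by gene group. No gene drawn was called, and the differences of the single pairs lay between -0.42 (ERAP2) and 0.29 (TAP1).

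The clearest difference among the HLA genes lay between the experiments and not between the mimics. In both treatments, the class II alpha and beta chains were lower in experiment 2 than in experiment 1, while no probe for a class I heavy chain was called. HLA-DPA1 and HLA-DPB1 were about 2.2-fold higher in experiment 1, HLA-DRA 1.98-fold and HLA-DRB1 1.46-fold. Over all probes, 3191 of 22596 were called between experiments, a background of 14.1%, with 1280 higher and 1911 lower in experiment 2. None passed adjustment, the smallest adjusted p being 0.0632. Among the members 18 of 56 tested probes, 32.1%, were called. By group, 13 of 15 probes for class II alpha and beta chains were called (86.7%), all lower, against 0 of 12 for class I heavy chains, 3 of 14 for class I assembly, 1 of 7 for class II loading and 1 of 8 for the regulators. Adjusted p-values of the called members ran from 0.165 to 0.315 in limma with Benjamini-Hochberg adjustment. This comparison uses the same 4 arrays as the one between mimics.

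**Figure D2:**
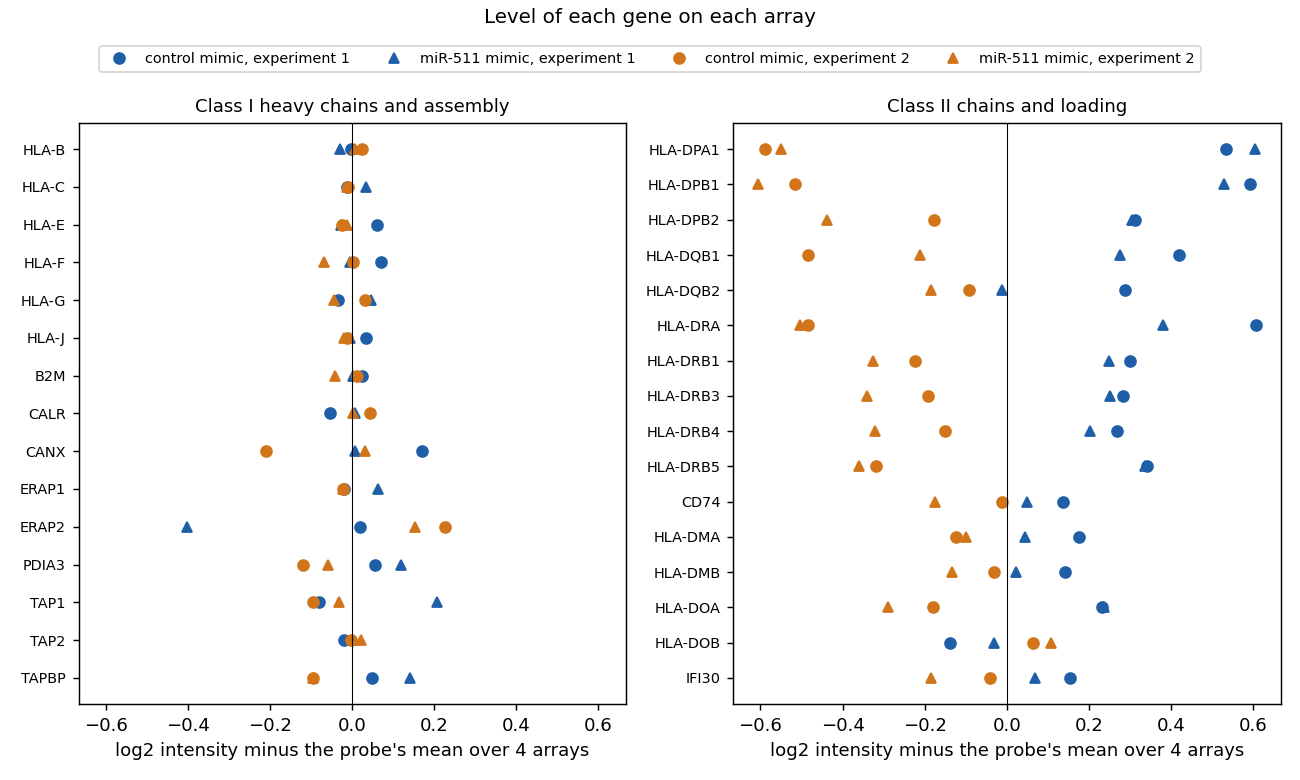
Normalized log2 intensity of each array minus the mean of the 4 arrays for the brightest tested probe of 15 class I genes (left) and 16 class II genes (right), with circles for control mimic, triangles for miR-511 mimic, blue for experiment 1 and orange for experiment 2. For 10 of 10 class II alpha and beta chain genes both orange points lie below both blue points, whereas the points of the class I heavy chains drawn lie within 0.0705 of the mean.

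HLA-DP had the largest differences among the called members. HLA-DPA1 stood at 8.66 (miR-511 mimic) and 8.59 (control mimic) in experiment 1 and at 7.51 and 7.47 in experiment 2. HLA-DPB1 stood at 9.57 and 9.63, then at 8.44 and 8.52. In both genes the 2 arrays of an experiment lay within 0.1 of each other and the experiments lay over 1 log2 unit apart. The log2 difference, experiment 2 minus experiment 1, was -1.14 with a standard error of 0.072 for HLA-DPA1 (unadjusted p = 9.59e-05, adjusted p = 0.165) and -1.12 ± 0.076 for HLA-DPB1. The 4 probes for HLA-DPB1 gave -1.12, -1.17, -1.14 and -1.10, and a second probe for HLA-DPA1 gave -0.68. The pseudogene HLA-DPB2 had -0.62 ± 0.11. All 7 probes of the DP genes were called.

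HLA-DR followed. HLA-DRA, whose 4 values are given above, differed by -0.99 ± 0.10 (95% interval -1.28 to -0.70, adjusted p = 0.169). HLA-DRB1, whose probe is printed in 10 spots per array with standard deviations between 0.036 and 0.085, differed by -0.55 ± 0.077. HLA-DRB5 went from 12.68 and 12.68 in experiment 1 to 11.98 and 12.02 in experiment 2, a difference of -0.68. HLA-DRB3 and HLA-DRB4 differed by -0.53 and -0.47. These 4 beta chain probes thus differed the same way, but since the genes are near-identical they are not 4 independent measurements.

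HLA-DQ was less uniform. The brighter HLA-DQB1 probe went from 9.51 and 9.66 to 9.03 and 8.75 and was called at -0.70 ± 0.13, while its other probe gave -0.45 ± 0.17 and was not called (unadjusted p = 0.0543). HLA-DQB2 gave -0.28 (95% interval -0.63 to 0.08) and was not called. No value can be given for the alpha chain HLA-DQA1, which was above background with 1 probe on 1 array only.

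**Figure D3:**
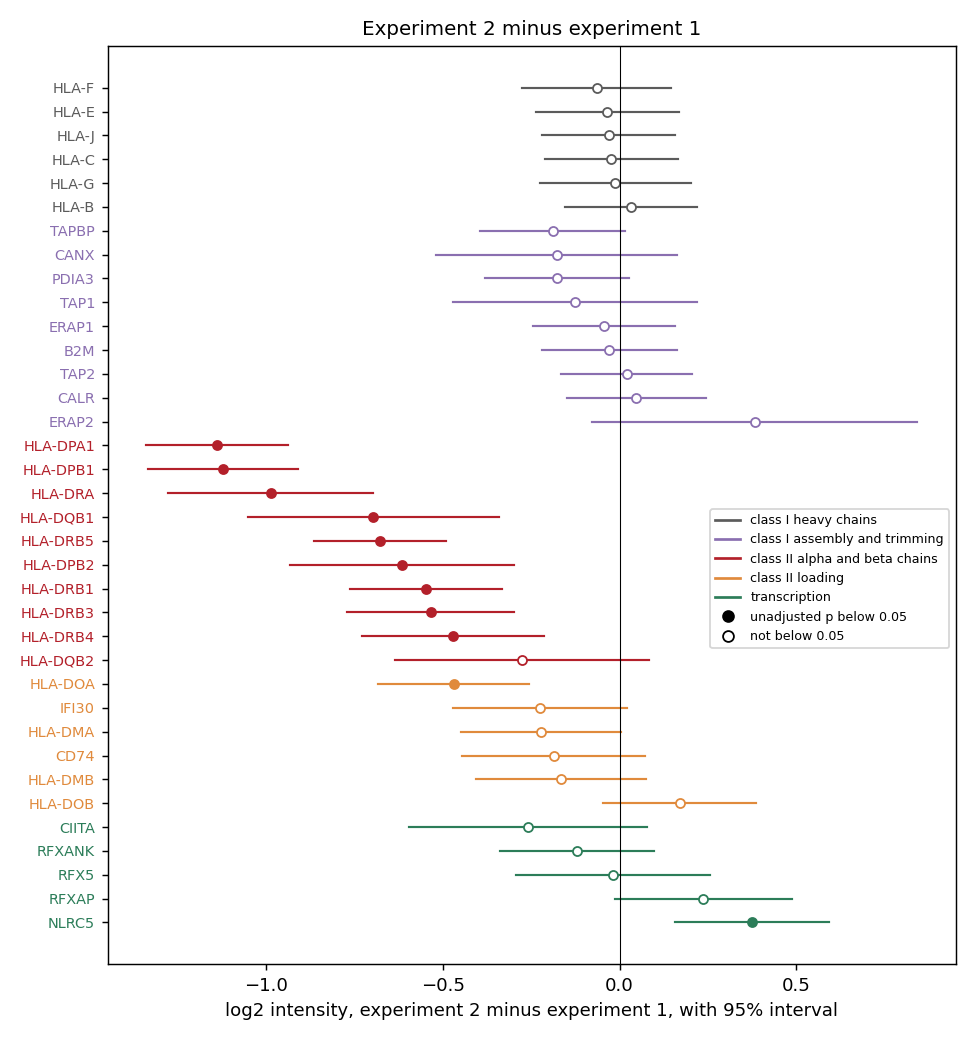
Difference in normalized log2 intensity, experiment 2 minus experiment 1, for the brightest tested probe of 36 genes with its 95% interval, coloured by gene group, with filled points where the unadjusted p was below 0.05. The called class II alpha and beta chains lie between -1.14 and -0.47, and the class I heavy chains drawn lie between -0.06 and 0.03 with intervals that include 0.

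The proteins that load class II had smaller differences. CD74, the invariant chain, stood at 8.63 and 8.72 in experiment 1 and 8.41 and 8.57 in experiment 2, a difference of -0.19 (95% interval -0.45 to 0.07). HLA-DMA gave -0.22 (unadjusted p = 0.052), HLA-DMB -0.16 and IFI30, a thiol reductase of endosomes, -0.22, none of them called. HLA-DOB was the exception in sign at 0.17. The probe for HLA-DOA was called at -0.47, but its values of 3.95 and 3.94 in experiment 1 and 3.42 and 3.53 in experiment 2 lay near background. It was not well above background on 1 array of experiment 2 and entered the test through experiment 1, where it is higher, so its difference is a description. The HLA-DOA probe also lost its call in 2 alternatives, and its difference was far smaller with normexp background correction. Of the 54 member probes well above background on all 4 arrays, 17 were called. The genes HLA-DQB1, HLA-DOB, HLA-DMB, HLA-DMA, HLA-DOA and HLA-DPA1 lie in this order along chromosome 6. On hg19 the HLA-DQB1 probe lies at chr6:32629125-32629184, the HLA-DMA probe at chr6:32916566-32916625 and the HLA-DPA1 probe at chr6:33032848-33032907. The transporter genes TAP2 and TAP1 lie in the same stretch, with probes at chr6:32793222-32793281 and chr6:32813210-32813269, and gave 0.02 and -0.13. The difference between experiments was therefore not shared by all measured genes of that stretch.

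Class I was nearly level between experiments. The differences were -0.02 for HLA-C, -0.03 for HLA-E, -0.06 for HLA-F, -0.01 for HLA-G and 0.03 for HLA-B, and that of B2M was -0.03 with a 95% interval of -0.22 to 0.16. Called among the assembly genes were dimmer probes of CANX at -0.36, of TAPBP (tapasin) at -0.26 and of TAP2 at 0.39, whereas the brightest probe of each of these genes was not called. The median over class I genes was -0.030 and that over class II genes -0.50, against -0.010 over all tested probes. Class II minus class I came to -0.47, to -0.50 within the miR-511 mimic and to -0.44 within the control mimic. A lower share of cells with class II and less class II transcript per cell cannot be told apart in RNA from whole cultures.

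The regulators did not move as a group. NLRC5 was called at 0.38 ± 0.078, with 8.64 and 8.69 in experiment 1 and 8.99 and 9.10 in experiment 2, but its second probe gave 0.13 and was not called. The brighter CIITA probe gave -0.26 (95% interval -0.60 to 0.08) and the dimmer one 0.29, neither called, the dimmer probe being above background on 3 of the 4 arrays. RFX5 gave -0.02, RFXANK -0.12 and RFXAP 0.24. Of 14 tested probes for further factors (among them NFYA, NFYB, NFYC, CREB1, ATF1, EP300, CREBBP, IRF1 and SPI1) 0 were called in either comparison by limma at an unadjusted p below 0.05.

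Promoters are shown because many class II genes differed together and class II promoters are known for the X and Y elements. RefSeq promoters, 250 bases before the start site on GRCh38.p14, were at hand for 33 of the 46 genes, and the letters AGNNACNGA (an X box core) and GATTGG (a Y box) were searched on both strands. The motifs do not overlap each other. AGNNACNGA was present in 12.3% and GATTGG in 14.1% of all 35116 promoters, and AGNNACNGA before GATTGG on the gene's strand, at most 60 bases apart, in 0.151%. Counted by gene, with any promoter of a gene, these shares were 14.9%, 16.8% and 0.19% of 27305 genes. This order was found in HLA-DRB1, HLA-DRB5, HLA-DQB1, HLA-DMA and HLA-DOA, thus in 5 of the 33 member genes. Singly, AGNNACNGA was present in 5 and GATTGG in 6 of 8 matched class II chain genes, and GATTGG in all 4 matched class I heavy chain genes (HLA-B, HLA-C, HLA-F and HLA-G). In these 4 genes and in HLA-DPB1, GATTGG lay on the opposite strand only, unlike in the windows below. The letters were chosen after these promoters had been read, and the sequences are those of the reference and not of THP1. The windows below run 5′ to 3′ on the gene's strand, with the motifs in capitals. Those of HLA-DRB1 (chr6:32589890-32589927), HLA-DRB5 (chr6:32530373-32530410), HLA-DQB1 (chr6:32666741-32666778) and HLA-DPA1 (chr6:33073704-33073748) belong to genes called lower in experiment 2. Those of HLA-DMA (chr6:32953172-32953210), HLA-DMB (chr6:32941072-32941116), HLA-DOB (chr6:32817096-32817140), all on the minus strand like the former, and of B2M (chr15:44711428-44711472, plus strand) belong to genes that were not called.
HLA-DRB1: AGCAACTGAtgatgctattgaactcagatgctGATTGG
HLA-DRB5: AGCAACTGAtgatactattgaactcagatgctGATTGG
HLA-DQB1: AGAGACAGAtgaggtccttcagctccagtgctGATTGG
HLA-DPA1: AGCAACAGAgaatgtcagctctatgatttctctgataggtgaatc
HLA-DMA: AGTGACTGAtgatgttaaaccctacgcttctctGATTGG
HLA-DMB: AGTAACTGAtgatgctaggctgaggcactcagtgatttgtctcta
HLA-DOB: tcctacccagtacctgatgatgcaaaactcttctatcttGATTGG
B2M: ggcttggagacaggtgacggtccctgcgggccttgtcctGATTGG

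The spacing of the motifs was 23 bases in HLA-DRB1, HLA-DRB5 and HLA-DQB1 and 24 bases in HLA-DMA and HLA-DOA. HLA-DMA, with both motifs, was not called in the main setting (limma, unadjusted p = 0.052) but passed the threshold in some alternatives. Of the other genes with both motifs in this order, HLA-DRB1, HLA-DRB5 and HLA-DQB1 were called. HLA-DOA has both too, but its call is a description only, since its probe lay near background and entered the test through experiment 1. HLA-DPA1, with 1 of the motifs in these letters, had the largest difference among class II genes by their brightest probes. Whether the presence of these letters goes with the calls was not tested, since the letters were chosen after the promoters had been read. Called genes such as HLA-DRA had no promoter here. HLA-DMB holds GATTGG too, but on the opposite strand and not on the gene's strand. A match in letters describes the sequence and is not a site of binding.

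Interferon raises HLA genes, so the interferon-response genes of the same arrays are given beside them. For miR-511 mimic against control mimic 0 of 22 tested probes had an unadjusted p below 0.05 in limma, 3 of them measured on 1 side only. Both probes of the chemokine CXCL10 and the probe of IFI44L were well above background on the control mimic arrays only, so their folds are lower bounds, taken against the lowest signal well above background on each miR-511 mimic array or the probe's own signal where higher. The CXCL10 probe A_33_P3343175 read 3.23 with miR-511 mimic and 4.57 with control mimic in experiment 1, and 1.57 and 3.62 in experiment 2. Its bound was at least 1.63-fold higher with control mimic, and those of the other CXCL10 probe and of IFI44L were at least 1.3-fold and 1.52-fold. These bounds are of means over both experiments. In experiment 1 the other CXCL10 probe differed by only -0.09 and IFI44L by -0.26, miR-511 mimic minus control mimic. In experiment 2 they differed by -2.86 and -2.24. These 3 probes entered the test only through the control mimic arrays, and their p-values rest on values below background. For A_33_P3343175 limma gave an unadjusted p of 0.0624 (adjusted p = 1). With the experiment as a replicate block it gave an unadjusted p of 0.00474. Neither value is read as a call. Between experiments 6 of 19 tested probes were called, all lower in experiment 2, against 14.1% of all probes (1911 of 22596 lower). They were IFI6 (-0.66), OAS1 (-0.71), IRF7 (-0.39), ISG15 (-0.36) and 1 probe each of OAS2 (-0.35) and IFIT2 (-0.27). The median over the 19 probes was -0.29, and the summed linear intensity of the list was 21900 and 24390 in experiment 1 and 18820 and 20260 in experiment 2. IRF1 gave 0.02, SOCS1 0.03 and GBP2 0.20, and these were not called. Also not called, but lower, were MX1 (-0.56), IFIT1 (-0.46), IFIT3 (-0.40), GBP5 (-0.24), IDO1 (-0.17) and STAT2 (-0.16). Of the immunoproteasome subunits and activators, which interferon-gamma raises, 0 of 5 were called in either comparison (limma, unadjusted p below 0.05), and their median between experiments was 0.13. The part of interferon-response genes in the class II difference was not tested.

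**Figure D4:**
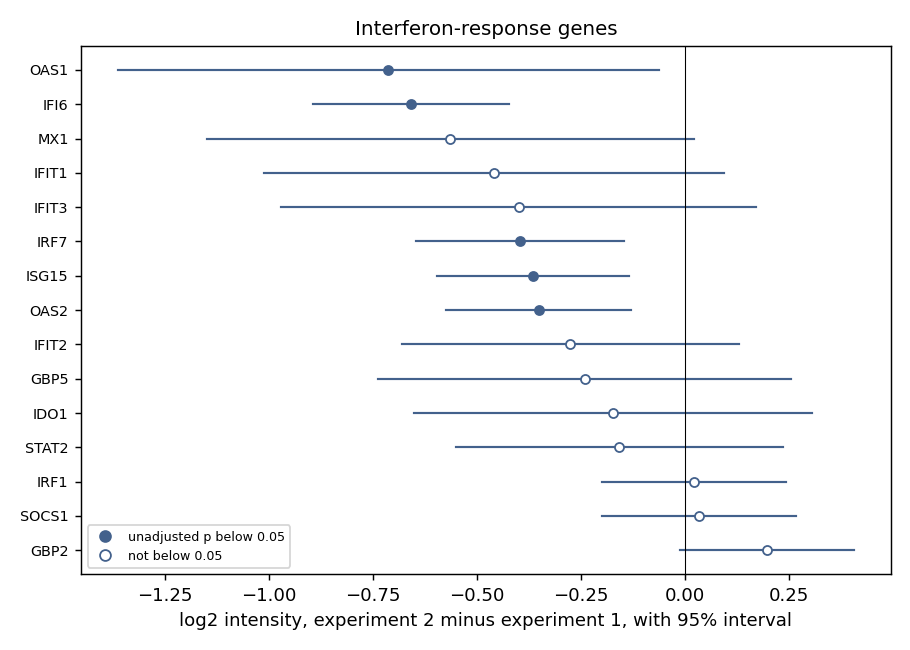
Difference in normalized log2 intensity, experiment 2 minus experiment 1, with its 95% interval for the brightest tested probe of 15 interferon-response genes, filled where the unadjusted p was below 0.05. OAS1 and IFI6 lie lowest, at -0.71 and -0.66, while IRF1, SOCS1 and GBP2 lie above 0.

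Other genes of the pathway were mostly level. Of 9 tested probes for further class I peptide handling (TAPBPL, SEC61B, HM13, LNPEP, TPP2), of 5 for class II peptide handling (CTSS, CTSL1, CTSB, CTSD, AP1M1) and of 1 for the class II ubiquitin ligase MARCH8, 0 were called in either comparison by limma at an unadjusted p below 0.05. Among other class I-like chains 0 of 10 tested probes were called between mimics. Between experiments, where 14.1% of all probes were called, 5 of these 10 were called, ULBP2 (-0.53), ULBP1 (-0.38) and 2 probes of the stress ligand MICA (-0.27 and -0.25) lower and AZGP1 (0.45) higher in experiment 2. CD68 (-0.29) and CSF1R (-0.25) were called lower among 10 monocytic markers, a share near that background, and the summed linear intensity of these markers was 276800 and 282100 in experiment 1 and 247900 to 262700 in experiment 2. The summed intensity of the 5 B cell markers was 1726 and 1852 in experiment 1 and 1724 and 1850 in experiment 2. Among 4 tested T cell marker probes 1, for CD3D, was called at 0.21, and of the erythroid markers 0 of 3 tested probes were called. The part of all these markers in the class II difference was not tested.

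A single HLA-B probe stood apart from the other class I probes. The dimmer probe A_33_P3424800 (hg19 chr6:31321663-31321722) read 11.84 with miR-511 mimic and 13.58 with control mimic in experiment 1, and 14.70 and 13.56 in experiment 2. The control mimic arrays were alike and the miR-511 mimic arrays lay on either side of them, at -1.75 and 1.14 from their controls. The brighter HLA-B probe A_33_P3379947 (chr6:31321653-31321712) shares 50 of its 60 bases of genome with this probe and stayed between 15.06 and 15.11. The probe A_33_P3424803 (chr6:31321644-31321703), named HLA-C on the array, shares 41 bases and stayed between 15.87 and 16.12. Each of the 3 is printed once, no outlier mark lay on the dimmer probe, and the mean difference of -0.30 was far from a call (unadjusted p = 0.777).

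**Figure D5:**
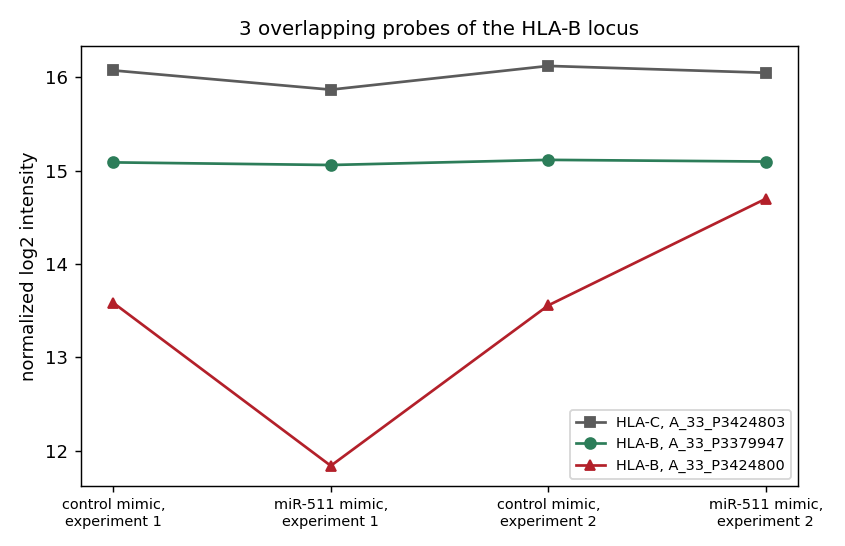
Normalized log2 intensity on the 4 arrays of 3 probes that overlap in the genome, 2 named HLA-B and 1 named HLA-C on the array, with lines joining the values of a probe. The dimmer HLA-B probe (triangles) ranges from 11.84 to 14.70, whereas the other probes stay between 15.06 and 15.11 (circles) and between 15.87 and 16.12 (squares).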

How the data were processed

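Total RNA of 4 THP1 cultures was labelled with Cy3 and hybridised to Agilent 4x44K v2 arrays on 1 slide. The deposited intensities are the authors' Feature Extraction output (version 10.5.1.1 per the labels, 10.7.3.1 per the file headers), background-subtracted by the scanner software. The authors also deposited a table of quantile-normalized log2 values, used as an alternative. The scanner's other columns hold flags for background, outliers and saturation, per the file headers. The precision is limited by the number of arrays. Here log2 processed intensities of non-control spots, without outlier spots, were quantile-normalized and averaged per probe. Probes with values on all 4 arrays and well above background on both arrays of 1 group were tested with limma 3.58.1 (R 4.3.3). The study's methods name limma but state no design, and the fit here held the treatment alone. The moderated test is two-sided, with calls at an unadjusted p below 0.05 and Benjamini-Hochberg adjustment over all probes tested. The code was tested on simulated data. The experiment numbers pair the arrays by the labels, and deviations from the treatment means correlated at 0.27 within each experiment.

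Genes named are all called member probes and the brightest tested probe of each gene, with probes of opposite sign. The members and lists were chosen with earlier results of these data known. Alternatives were scaling to the 75th percentile, background correction by normexp with an offset of 50, other filters, outlier spots kept, the deposited table, the experiment or treatment as a further term, an intensity trend, an unmoderated two-sided test per probe with equal variances, the mean over a gene's probes, and each array left out. All 4 arrays lay on 1 slide, so no slide block was fitted. LYZ and FCGR1A were not analysed here. Some genes of these lists are counted in the totals and medians but are not reported singly here.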

Additional observations from a re-analysis of the deposited data

Results flagged for a closer look

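Of 56 tested member probes, 18 had differences between miR-511 mimic and control mimic of opposite sign in the 2 experiments, and in 2 of them both differences were over 0.2 on the log2 scale. Over all 22638 tested probes these numbers were 11100 and 1354. The dimmer HLA-B probe A_33_P3424800 differed by -1.75 in experiment 1 and by 1.14 in experiment 2. The dimmest HLA-DPB1 probe A_33_P3271635 differed by 0.29 in experiment 1 and by -0.49 in experiment 2. With 1 array per treatment and experiment whether the effect of the mimic differed between the experiments was not tested for either probe. Groups of 2 arrays are too small to look for a single array that lies apart.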

How the results depend on the processing

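With 2 arrays a group, the treatment comparison limits what can be called, and single probes near background carry an upper bound only. Of the members, 0 were called for the mimics in the main setting. That count was 1 without a filter on dim probes, 1 (RFX5, at -0.15) with an unmoderated test per probe, and between 0 and 3 with single arrays left out. The paired fit with the replicate block called 0 members, while calls over all probes went from 498 to 894. It cannot change the medians, since each experiment holds 1 array of each mimic. Over all probes the number of calls also fell to 265 with normexp, to 285 with an intensity trend and rose to 1029 without a filter and to 1440 without miR-511 mimic replicate 2, with none passing adjustment.

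The class I median of the treatment was -0.015 with 75th percentile scaling, -0.0021 with normexp, 0.0017 without a filter and -0.0085 with the mean over a gene's probes, so its sign is not settled. With single arrays left out it lay between -0.027 and 0.012, the class II median between -0.34 and 0.21, and class II minus class I between -0.31 and 0.20. Class II minus class I was -0.066 with normexp and stayed below 0 in all alternatives that keep the 4 arrays.

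Between experiments the count of class II alpha and beta chain probes was 13 to 15 in every alternative, all lower in experiment 2, and the count of member probes was 16 to 21. The class II median was -0.35 with normexp and between -0.56 and -0.41 with single arrays left out. The class I median was 0.0074 with 75th percentile scaling, -0.044 with normexp and between -0.039 and -0.0069 with single arrays left out. Class II minus class I was -0.53 with 75th percentile scaling, -0.31 with normexp and between -0.52 and -0.39 with single arrays left out. These counts by chain group and this class difference were added after seeing the data. Calls over all probes went from 3191 to 1990 without control mimic replicate 2. Of 18 called members, the probes of TAP2, CANX, TAPBP, NLRC5 and HLA-DOA lost their call in 1 to 4 alternatives each, and HLA-DOA was at -0.08 with normexp. HLA-DMA, not called, passed the threshold in 4 alternatives. No called member changed sign. With normexp 3 probes passed adjustment over all probes, none of them a member. The cause of these changes was not tested.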
